A study of Mus musculus with 14 samples.

Results

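The miRNAs described here are known chiefly for expression in muscle, liver, epithelium, pancreas, brain, sensory organs or the early embryo. They were taken as miRNAs not expected in macrophages and are called tissue-restricted below, though restriction was not tested here. They are 36 named miRNAs, and every mouse-named probe carrying one of these names, with any letter, star or arm suffix, was counted as a member, which gave 47 of the 343 mouse-named probes on the array, or 45 of 339 distinct mouse miRNA names. By the tissue for which they are known, 14 probes are embryonic, 9 neural, 7 epithelial, 6 of sensory organ and eye, 5 of muscle, 5 pancreatic and endocrine and 1 of liver. miR-133b was represented only by a probe shared with miR-133a, and miR-137 and miR-217 by 2 probes each. The miR-128a and miR-128b probes were both matched to the mature sequence of miR-128-3p.

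The arrays measured total RNA of adherent peritoneal macrophages from BALB/c mice in 4 groups. These were IL-4 receptor knockout (IL-4R KO) mice 21 days after a peritoneal implant of the nematode Brugia malayi (4 arrays), wild type mice 21 days after the same implant (4 arrays), IL-4R KO mice 3 days after injection of thioglycollate, an irritant that draws macrophages into the peritoneum (3 arrays), and wild type mice 3 days after thioglycollate (3 arrays). Elicitation and day of harvest therefore cannot be told apart. Arrays were run 2 to a slide. No slide held both elicitations, and none held both genotypes after nematode implant. Slide therefore cannot be told apart from elicitation, or from genotype after nematode. Cells that adhered to plastic for 4 hours were kept, and staining for the macrophage markers F4/80 and CD11b put their purity above 80%. The remaining cells were not identified. The receptor chain deleted, the ages of the mice and whether each array holds 1 animal or a pool are not given in the sources used here, so the p-values cover no more than the spread among the arrays of a group, which may be technical. Loss of the receptor could not be checked on a miRNA array. In such bulk RNA, fewer cells of a type and less RNA per cell cannot be told apart.

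MicroRNAs are short RNAs cut from hairpin precursors, and either arm of the hairpin (5p or 3p) can give a mature miRNA that pairs with target mRNAs chiefly through its seed, bases 2 to 8. Tissue-restricted miRNAs such as miR-1 and miR-133a in muscle, miR-122 in liver, miR-124 in neurons and the miR-200 family in epithelium are abundant in one lineage and scarce in most others. The miR-290 to miR-295 cluster and the miR-302 cluster are known for embryonic stem cells and the early embryo. Nematode implants give alternatively activated macrophages, a state driven by IL-4 and IL-13 through the IL-4 receptor.

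RefSeq mature sequences (GRCm38.p6) were matched by miRNA name and arm to 39 of the 47 probes. The array's own capture oligos were not used here. The 3 embryonic 5p arms below are shown because their probes stood above blank spots on 9 or more of the 14 arrays, with a pair of 3p arms from the same cluster (chr7:3218626-3220841, plus strand, 2.22 kb) whose probes did so on 3 arrays or fewer; capitals mark the seed.
miR-290a-5p: aCUCAAACuaugggggcacuuu
miR-292a-5p: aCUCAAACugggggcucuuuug
miR-291a-5p: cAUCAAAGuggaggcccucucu
miR-291a-3p: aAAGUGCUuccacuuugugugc
miR-294-3p: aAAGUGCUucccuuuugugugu
miR-290a-5p and miR-292a-5p share the seed CUCAAAC, which is not that of the 3p arms, and their whole sequences differ at 7 positions when aligned from the 5′ end. This count allowed no gaps, and capture of one miRNA by the other's probe was not tested. Both sequences hold a run of 5 G. A run of at least 4 G, searched as GGGG in the mature strand, occurs in 188 of the 1679 mature miRNAs in the RefSeq table (11.2%) and in 3 members. The third was miR-302c*, whose mouse-named probe stood above blank spots on 0 arrays. A human-named miR-302c* probe, whose target sequence was not compared with the mouse sequence, did so on 9.

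The 5 miR-200 family members are shown because they fall into 2 seed groups with near-identical sequences. miR-200b, miR-200a and miR-429 lie together at chr4:156053905-156055750 and miR-200c and miR-141 at chr6:124717914-124718390, all on the minus strand.
miR-200b-3p: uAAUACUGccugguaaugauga
miR-200c-3p: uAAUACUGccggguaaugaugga
miR-429-3p: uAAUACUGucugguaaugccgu
miR-200a-3p: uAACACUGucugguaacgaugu
miR-141-3p: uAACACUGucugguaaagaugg
miR-200b differs from miR-200c at 3 positions and from miR-429 at 4, and miR-200a differs from miR-141 at 2, and capture of one miRNA by another's probe was not tested, so their separate levels are uncertain. A pair chosen after its values were seen, miR-204 and miR-211, differs at 1 position. The miR-204 probe was above blank spots on 0 arrays and the miR-211 probe on 5. A human-named miR-211 probe, whose target sequence was not compared, was above them on 6. Base composition was alike on both sides: the median GC content was 45.5% for the 20 sequenced members above blank spots on at least 3 arrays and 45.5% for the 19 others. Probes matched to the same mature sequence were counted separately. Of these, miR-128a (5 arrays) and miR-128b (2 arrays) fell on opposite sides.

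A probe was counted as above blank spots on an array where its mean net signal (foreground minus local background, over its 3 spots) exceeded the 95th percentile of that array's 726 blank or negative control spots, and was called above blank spots overall when this held on at least 3 arrays. That blank level varied between 12.6 and 111 intensity units from array to array. Nematode wild type replicate 4 stood apart, with the highest blank level and a correlation of 0.835 with its group over mouse probes, against 0.936 to 0.977 on the other arrays. Over the members this correlation was 0.202, against 0.714 to 0.932 elsewhere. On it, 13 of the 47 members had a brightest spot over 3 times the middle of their 3 spots, against 0 to 4 members on the other arrays. The macrophage and haematopoietic miRNAs miR-142-3p, miR-142-5p, miR-223, miR-21 and miR-22 were above blank spots on all 14 arrays, miR-155 on 13 and miR-146 on 12. Of the markers of other cells, lymphocyte miR-150 was above them on 8 arrays, stromal miR-199b on 7, miR-214 on 5, miR-145 on 3, miR-143 on 2 and miR-199a on 1. Endothelial miR-126-3p was above them on 5 and miR-126-5p on 1, and erythroid miR-451 and miR-144 on 2 each. The part of such cells in the members' signal was not tested.

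As a group, the tissue-restricted probes were dim: their median net signal was above the median of blank spots on 14 of 14 arrays (10.9 to 21.6 units, against 6.69 to 9.18 for the blanks) and below that of the other mouse probes on 14 of 14. The median of the negative controls alone was higher than that of the blanks, at 11.6 to 42.9 units. It was above the members' median in nematode wild type replicates 2, 3 and 4 and nematode IL-4R KO replicate 3, and below it on the other arrays. Of the 47 members, 25 (53.2%) were above blank spots on at least 3 arrays, against 230 of all 343 mouse probes (67.1%) and 205 of the 296 other mouse probes (69.3%). The gap widened at 7 or more arrays, which 3 members (6.38%) reached, against 119 of 343 mouse probes (34.7%). No member was above blank spots on all 14 arrays, where 24 mouse probes (7%) were, and 7 members were above them on none. Leaving out nematode wild type replicate 4 gave 24 members. The count rested on a few arrays with low blank levels: it was 17 without thioglycollate wild type replicate 3 and 16 without thioglycollate IL-4R KO replicate 3, the arrays on which 34 and 29 members passed. The count over all mouse probes fell as well, to 192 (56%) and 198 (57.7%) of 343. Without these arrays and nematode wild type replicate 4 together it was 11 members (23.4%), against 168 mouse probes (49%).

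The members gave signals close to those of probes named for plant miRNAs. The array carries 216 of these, a baseline added after the data had been seen. Of these, 105 (48.6%) were above blank spots on at least 3 arrays, 28 (13%) on at least 7 and 193 (89.4%) on at least 1. Of the members, 40 (85.1%) passed on at least 1 array, against 320 of 343 mouse probes (93.3%). The share of members above blank spots was below that of the plant-named probes on 10 of 14 arrays and below that of the other mouse probes on 14 of 14. The median net signal of the members was above the plant-named median on 10 of 14 arrays. When the 95th percentile of the plant-named probes replaced that of the blanks, 3 members passed on at least 3 arrays, against 91 of 343 mouse probes (26.5%). Against blank spots alone, plant-named probes met the 3-array call slightly less often than the members (48.6% against 53.2%). They passed more often than the members at 1 array (89.4% against 85.1%) and at 7 arrays (13% against 6.38%).

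**Figure D1:**
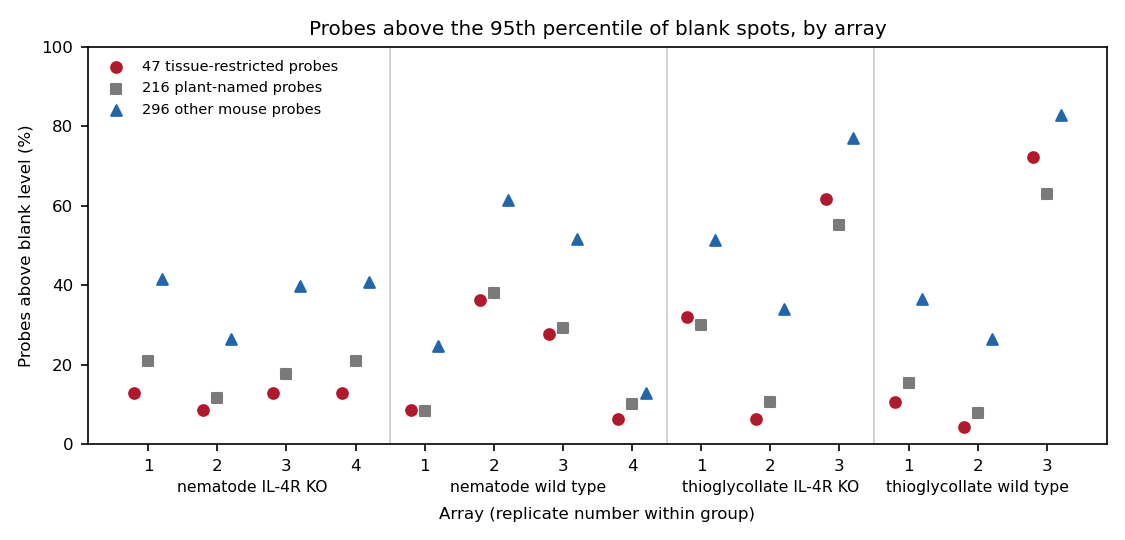
The share of probes above the 95th percentile of blank spots (y axis, percent) is plotted for each of the 14 arrays (x axis, by group), with circles for the 47 tissue-restricted probes, squares for 216 plant-named probes and triangles for 296 other mouse probes. The circles lie below the triangles on 14 of 14 arrays and below the squares on 10.

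The class counts that follow stand beside 67.1% of all mouse probes and 48.6% of plant-named probes for the same 3-array call. With so few probes in a class, they do not show expression of its miRNAs. In the muscle class, which holds regulators of skeletal and cardiac muscle differentiation, 4 of 5 probes met the 3-array call and none reached 7 arrays. miR-1 was above blank spots on 5 arrays, and a rat-named probe for miR-1 was above them on 2. A rat-named probe for miR-1* was also above them on 2. The liver class was miR-122a alone, the most abundant hepatocyte miRNA, and its probe was above blank spots on 0 arrays. Its net signal ran between 3.55 and 20.6 units.

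In the epithelial class, 6 of 7 probes met the 3-array call and none reached 7 arrays. The highest counts were 6 arrays for miR-203, known for keratinocyte differentiation, and 5 each for miR-141 and miR-200b, which hold down the ZEB repressors of E-cadherin. A human-named probe for miR-429 was above blank spots on 2 arrays, beside 1 for the mouse-named probe. A human-named probe for miR-200a* was above them on 3.

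In the neural class, 3 of 9 probes met the 3-array call, against 67.1% of all mouse probes. The neuronal miR-124a, miR-138 and the miR-137 probe shared with human were above blank spots on 0 arrays, while a second miR-137 probe was above them on 1. In the sensory organ and eye class 2 of 6 met it, and miR-204, known from retinal pigment epithelium and lens, was above blank spots on 0 arrays. A human-named probe for miR-182* was above them on 0 as well. In the pancreatic and endocrine class 1 of 5, miR-375 of islet cells, was above blank spots on 3 arrays, and a second miR-217 probe was above blank spots on none.

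Several members had their highest signal on 1 array, and those named here were picked out after their values were seen. miR-216a had a mean net signal of 240 units in nematode wild type replicate 4 and at most 17 on the other arrays. On that array its 3 spots read 8.49, 194 and 516 units. In the same array miR-208 averaged 114 units from spots of 10.5, 21.9 and 310, against at most 19.8 elsewhere. miR-302d averaged 205 units in thioglycollate IL-4R KO replicate 2 from spots of 9.83, 59.6 and 545, against at most 80.9 elsewhere. In these examples the spots of 1 probe disagreed within the array. In others at least 2 spots were alike, as for miR-133a* in nematode wild type replicate 4 (45.3, 134 and 136 units, against at most 22 elsewhere). The mean of these spots, 105 units, was still below that array's blank level of 111. Of the 47 members, 11 had their highest signal on that array and 11 on nematode IL-4R KO replicate 2.

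**Figure D2:**
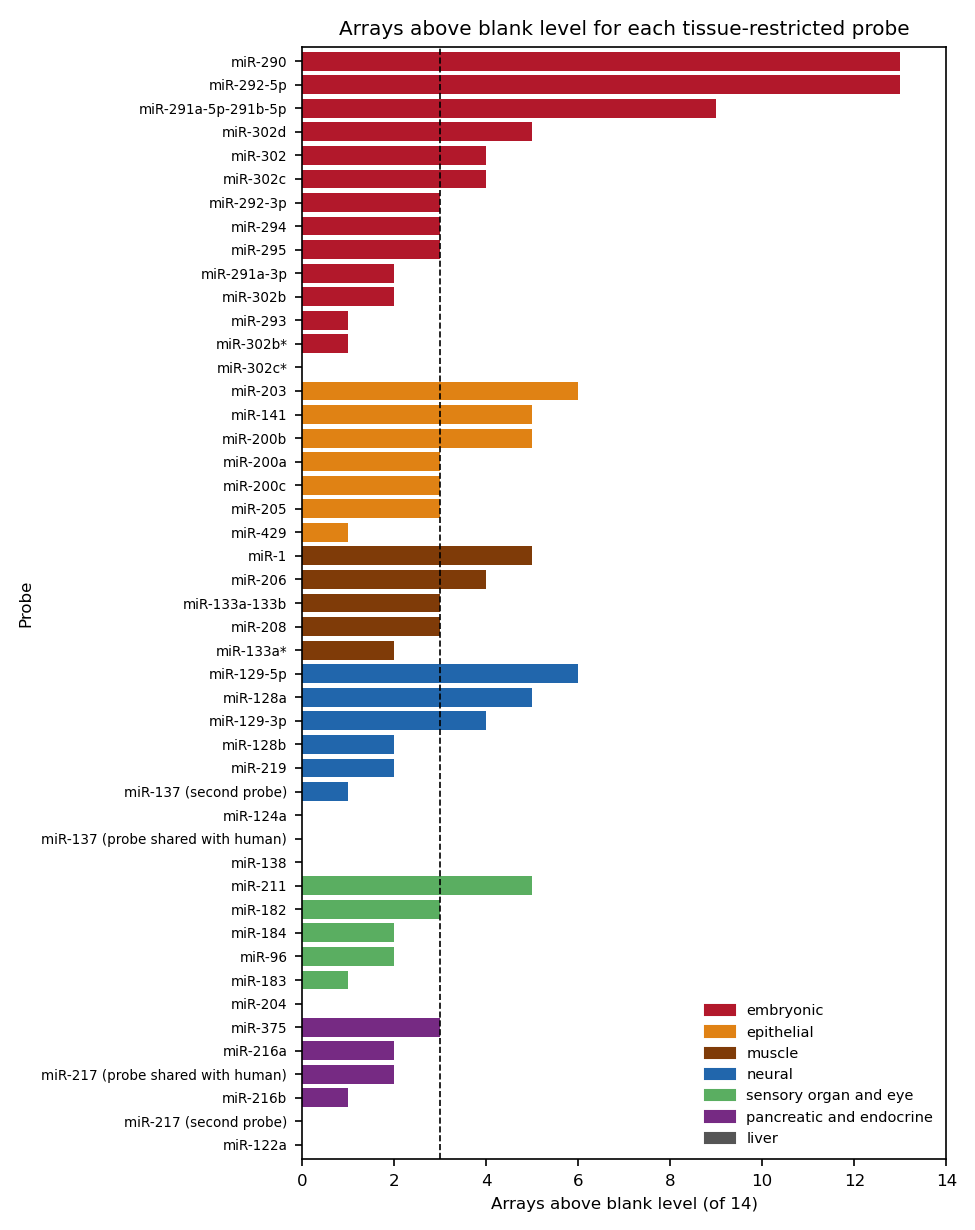
Bars give the number of the 14 arrays (x axis) on which each of the 47 probes (y axis) was above blank level, coloured by tissue class, and the dashed line marks the 3 arrays required for a call. miR-290 and miR-292-5p reach 13 arrays and miR-291a-5p-291b-5p 9, and no other probe passes 6.

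The embryonic class held the 3 members above blank spots on at least 7 arrays. A share of 3 in 47 (6.38%) was below that of the plant-named probes, of which 28 of 216 (13%) reached 7 arrays and 2 passed on all 14, so the count says nothing particular about the members. In all, 9 of the 14 embryonic probes met the 3-array call, against 67.1% of all mouse probes and 48.6% of plant-named probes. The 3 are all 5p arms of the miR-290 to miR-295 cluster. miR-290 was above blank spots on 13 arrays, miR-292-5p on 13 and the joint miR-291a-5p-291b-5p probe on 9. The 3p arms of this cluster, which carry the AAGUGCU seed of the embryonic stem cell miRNAs in miR-291a, miR-294 and miR-295, were above blank spots on 2 arrays for miR-291a-3p, 3 for miR-292-3p, 1 for miR-293, 3 for miR-294 and 3 for miR-295. In the miR-302 cluster the counts ran between 0 (miR-302c*) and 5 (miR-302d). Human-named probes, with target sequences not compared here, were above blank spots on 9 arrays for miR-302c*, 5 for miR-302a* and 3 for miR-302b*. Against the 95th percentile of the plant-named probes, a level that some of those probes exceed on every array by construction, miR-292-5p passed on 13 arrays, miR-290 on 12 and miR-291a-5p-291b-5p on 4, and 3 other members (miR-141, miR-216a and miR-302d) on 1 each. Against the brightest of the 8 negative control probes, miR-292-5p passed on 6 arrays, miR-290 on 4 and miR-291a-5p-291b-5p on 2. miR-216a, miR-294 and miR-302d passed it on 1 each. Which RNA bound these probes was not tested.

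Per-array values of these 3 probes are given as normalised log2 intensity, on which the 47 members lay between 5.78 and 8.43. miR-290 was at 7.44, 7.42, 7.47 and 7.35 in nematode IL-4R KO arrays, and at 7.36, 7.30, 7.41 and 6.58 in nematode wild type arrays. It was at 7.19, 7.16 and 7.47 in thioglycollate IL-4R KO arrays and at 8.03, 6.93 and 7.19 in thioglycollate wild type arrays. The groups overlapped throughout, and only nematode wild type replicate 4, at 6.58, was below blank level.

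miR-292-5p was at 8.24, 8.43, 7.67 and 7.82 in nematode IL-4R KO arrays, and at 7.44, 7.12, 7.82 and 6.67 in nematode wild type arrays. It was at 7.68, 7.47 and 7.10 in thioglycollate IL-4R KO arrays and at 7.82, 7.23 and 7.46 in thioglycollate wild type arrays. The 2 brightest arrays were nematode IL-4R KO replicates 1 and 2, and the nematode groups overlapped at 7.82 in wild type and 7.67 in the knockout.

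miR-291a-5p-291b-5p was at 6.94, 6.95, 6.97 and 7.02 in nematode IL-4R KO arrays, and at 6.55, 6.92, 6.57 and 6.10 in nematode wild type arrays. It was at 6.55, 6.34 and 6.46 in thioglycollate IL-4R KO arrays and at 6.40, 6.47 and 6.79 in thioglycollate wild type arrays. On this normalised scale every nematode IL-4R KO array was above every other array, most narrowly at 6.94 against 6.92 in nematode wild type replicate 2. The net signals overlapped, at 79.7 units in nematode wild type replicate 1 against 71.6 in nematode IL-4R KO replicate 4. Relative to each array's blank level, nematode wild type replicate 2 (3.55) was above every nematode IL-4R KO array (at most 2.94).

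**Figure D3:**
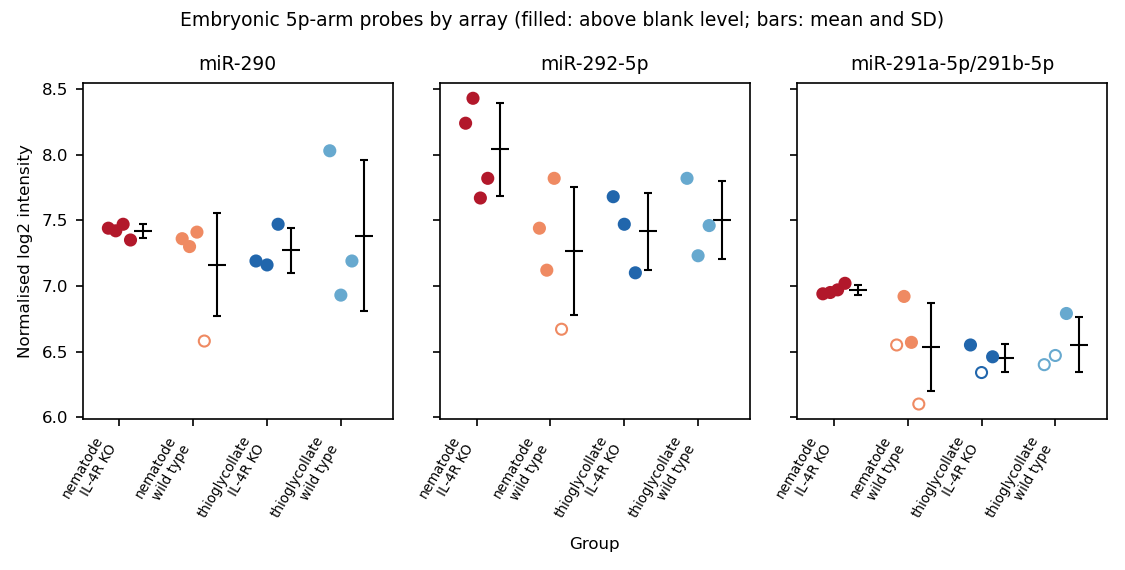
Normalised log2 intensity (y axis) of 3 embryonic 5p-arm probes is shown for each array by group (x axis), with filled points above blank level, open points below it, and bars for the mean and SD of the 4 or 3 arrays. The 4 nematode IL-4R KO arrays of miR-291a-5p-291b-5p lie between 6.94 and 7.02, and nematode wild type replicate 4 is open in all 3 panels.

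Whether nematode implants change these miRNAs in the presence of the receptor was asked in wild type mice. None of the 47 members passed an adjusted p of 0.05 in limma (Benjamini-Hochberg over 343 probes), against 3 of all mouse probes (0.875%). By unadjusted p under 0.05, 1 member stood out against 37 of 343 mouse probes (10.8%), and 1 member had groups that did not overlap, against 7.87% of mouse probes. The median log2 fold change was -0.02 over the members and -0.02 over all mouse probes. miR-141 was at 6.11, 6.13, 6.36 and 6.11 in nematode wild type arrays, against 6.58, 6.36 and 6.77 in thioglycollate wild type arrays. The groups met at 6.36, and the log2 fold change was -0.39 (SE 0.11, limma adjusted p = 0.144). miR-1 was at 6.03, 6.18, 6.13 and 5.99 in nematode wild type arrays, against 6.26, 6.24 and 6.44 in thioglycollate wild type arrays. Its groups did not overlap, but only 1 of 4 nematode and 1 of 3 thioglycollate arrays were above blank level. The log2 difference, -0.23 with an SE of 0.11 (limma adjusted p = 0.443), is thus mostly between values not above blanks. miR-200b was at 6.79, 6.35, 6.10 and 6.16 in nematode wild type arrays, against 6.20, 5.99 and 6.31 in thioglycollate wild type arrays, and these overlapped (log2 fold change 0.18, SE 0.14, limma adjusted p = 0.704).

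The same elicitation was compared in IL-4R KO mice. No member passed the adjusted threshold, against 5 of 343 mouse probes (1.46%), and 5 members had an unadjusted p under 0.05, against 33 mouse probes (9.62%). Groups did not overlap for 4 members, against 15.7% of mouse probes, and the median log2 fold change was 0.00 over the members and -0.04 over all mouse probes. For miR-291a-5p-291b-5p the log2 fold change was 0.52 (SE 0.16, limma adjusted p = 0.184), with a 95% interval of 0.18 to 0.86. It met the threshold with cyclic loess normalization (adjusted p = 0.00255), with only these 2 groups in the fit (0.00996) and without nematode wild type replicate 4 (0.0265). That array is in neither group compared and enters only through the shared estimate of spread. In 12 of 14 alternative settings no member met the threshold. The smallest limma adjusted p of any member was 0.335 with plain background subtraction, and 0.47 without thioglycollate IL-4R KO replicate 2. For miR-292-5p the log2 fold change was 0.62 (SE 0.26, limma adjusted p = 0.46). miR-1 was at 6.37, 6.07, 6.04 and 6.16 in nematode IL-4R KO arrays, against 6.63, 6.40 and 6.28 in thioglycollate IL-4R KO arrays. These overlapped, with a log2 fold change of -0.28 (SE 0.11, limma adjusted p = 0.363).

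The effect of the receptor after nematode implant was read from knockout against wild type arrays, and it shares the nematode IL-4R KO arrays with the comparison above. Wild type arrays were on slides 7 and 9 and knockout arrays on slides 6 and 15, so genotype and slide cannot be told apart here. No member passed the adjusted threshold, against 6 of 343 mouse probes (1.75%). By unadjusted p under 0.05 there were 3 members, against 43 mouse probes (12.5%), and groups did not overlap for 3 members, against 9.04% of mouse probes. For miR-291a-5p-291b-5p the log2 fold change was 0.43 (SE 0.14, limma adjusted p = 0.18), and 4 of 4 knockout arrays lay above every wild type array on the normalised scale. Without nematode wild type replicate 4 it was 0.29 (adjusted p = 0.285), and the threshold was met without nematode wild type replicate 2 (0.56, adjusted p = 0.0386) and with cyclic loess (0.38, adjusted p = 0.0486). In 13 of 14 alternative settings no member met the threshold. For miR-292-5p the log2 fold change was 0.78 (SE 0.24, limma adjusted p = 0.162), and 0.58 without nematode wild type replicate 4. For miR-290 it was 0.26 (SE 0.22, limma adjusted p = 0.624), and 0.06 without that array. miR-203 was at 6.69, 6.03, 6.53 and 6.42 in nematode IL-4R KO arrays, 3 of them above blank level. In nematode wild type arrays it was at 6.18, 6.29, 6.08 and 5.94, 1 of them above blank level. These overlapped, with a log2 fold change of 0.29 (SE 0.14, limma adjusted p = 0.416).

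miR-200c was at 6.40, 6.07, 6.27 and 6.17 in nematode IL-4R KO arrays, against 6.00, 5.97, 5.88 and 5.88 in nematode wild type arrays. Its groups did not overlap, but 1 of 4 knockout arrays and 0 of 4 wild type arrays were above blank level, so no fold is given (limma adjusted p = 0.202). The probe met the 3-array call through knockout arrays alone, so its separation by genotype is given as a description. In thioglycollate arrays it was at 6.26, 6.21 and 6.41 in the knockout, 2 of them above blank level, against 6.29, 5.86 and 5.88 in wild type, where 0 of 3 were. These overlapped (limma adjusted p = 1).

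Knockout against wild type after thioglycollate gave no member past the adjusted threshold, against 1 of 343 mouse probes (0.292%). At an unadjusted p under 0.05 there was 1 member, against 4.08% of mouse probes, and groups did not overlap for 5 members, against 11.1%. miR-203 was at 6.17, 6.45 and 6.63 in knockout arrays, against 6.27, 5.96 and 6.13 in wild type arrays, and these overlapped (difference 0.29 on the log2 scale with an SE of 0.17, adjusted p = 1 in limma). miR-141 was at 6.41, 6.26 and 6.38 in knockout arrays, against 6.58, 6.36 and 6.77 in wild type arrays, also overlapping (difference -0.22 on the log2 scale with an SE of 0.12, adjusted p = 1 in limma). Only slide 12 held arrays of more than 1 group, thioglycollate IL-4R KO replicate 1 and thioglycollate wild type replicate 3. Within it the knockout minus wild type difference was 0.03 for miR-203 and -0.37 for miR-141, with a median of -0.02 over the 47 members.

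**Figure D4:**
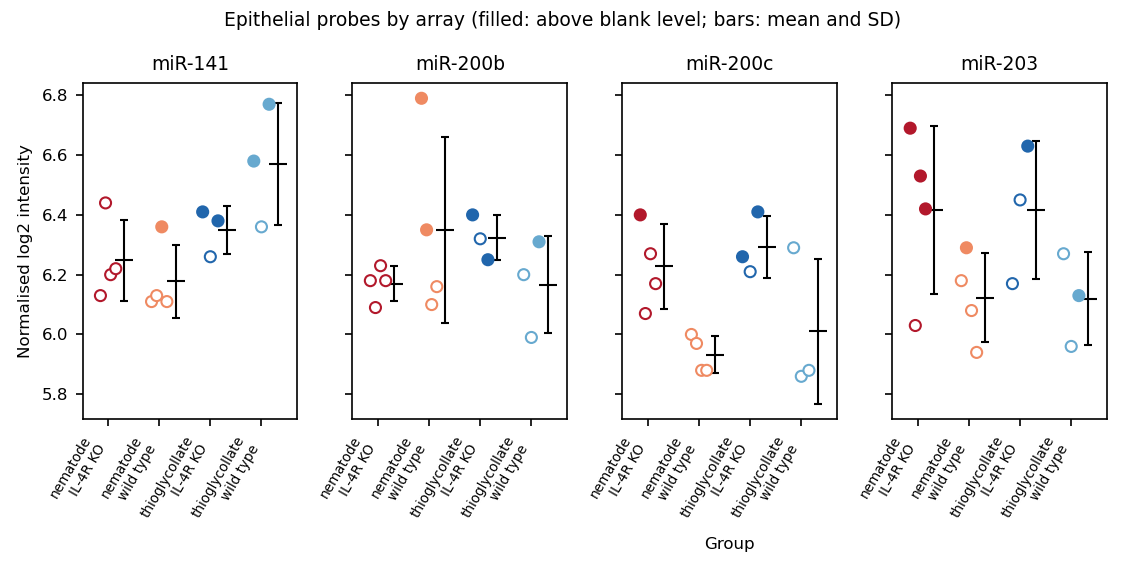
Normalised log2 intensity (y axis) of 4 epithelial probes is shown for each array by group (x axis), with filled points above blank level, open points below it, and bars for the mean and SD of the 4 or 3 arrays. Most points are open, and the 4 nematode wild type arrays of miR-200c, between 5.88 and 6.00, are all open.

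The interaction, the knockout minus wild type difference after nematode less that after thioglycollate, called no member, against 2 of 343 mouse probes (0.583%). There were 2 members with an unadjusted p under 0.05, against 6.71% of mouse probes. These were miR-291a-5p-291b-5p, at 0.54 (SE 0.22, limma adjusted p = 0.633), and miR-292-5p, at 0.86 (SE 0.37, limma adjusted p = 0.693). For miR-141 it was 0.29 (SE 0.16, limma adjusted p = 0.904).

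The largest member fold change in any comparison between groups was 0.78 on the log2 scale, against 2.27 among all mouse probes. The 95% interval lay within a 2-fold change in either direction for 46 members in nematode against thioglycollate wild type arrays, 45 in the knockout, 45 for genotype after nematode, 47 for genotype after thioglycollate and 42 for the interaction. The background correction used adds 50 units to each value and draws dim probes together. With plain background subtraction the counts were 21, 16, 19, 17 and 2, and the median SE in nematode against thioglycollate wild type arrays was 0.37, against 0.11. A p that misses the threshold at these levels does not show that the groups were alike.

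**Figure D5:**
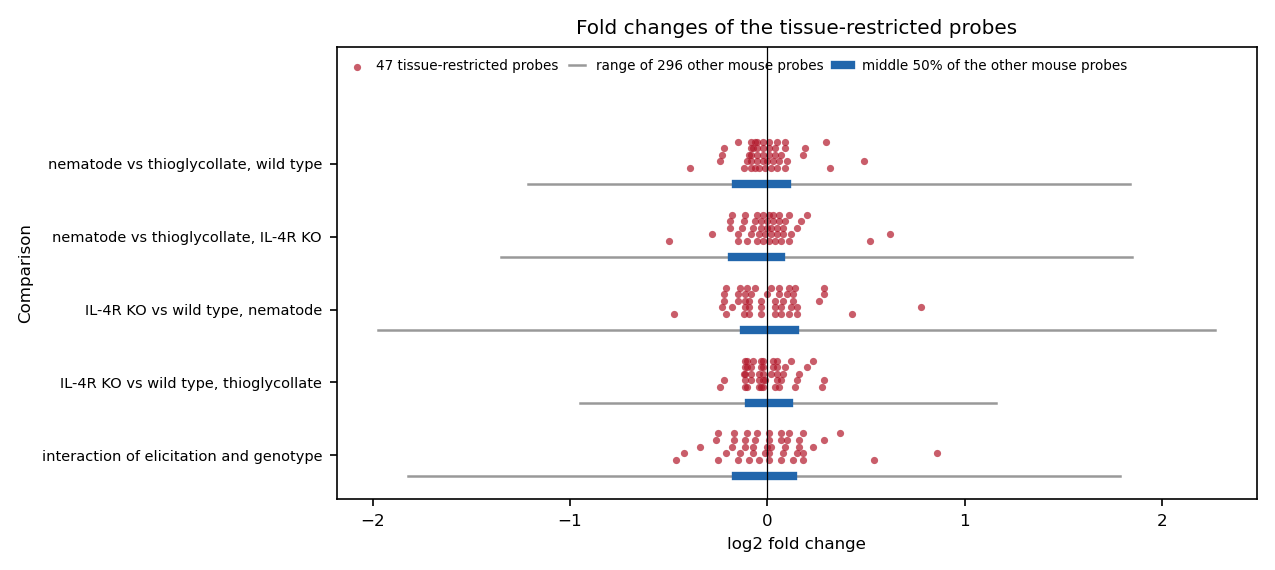
The log2 fold change (x axis) of each of the 47 probes is drawn as a point for the 5 comparisons (y axis), above a grey line for the range and a thick bar for the middle 50% of the 296 other mouse probes. The points lie within the grey range in each comparison, and their extreme is 0.86, for the interaction of miR-292-5p.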

How the data were processed

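The labels' elicitation and genotype set the groups. RNA was labelled with Hy3 and hybridised to 1-colour miRCURY LNA arrays, 2 to a slide, per the labels' protocols. Each deposited slide file gives the foreground and local background intensity of every spot, not normalised by the authors, per the file headers; their deposited intensity table equals foreground minus background within 5e-06. The number of arrays limits precision.

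Background was corrected in R 4.3.3 with limma 3.58.1 (normexp, offset 50), spots of a probe were averaged on the log2 scale, and arrays were quantile normalised over all named miRNA probes. limma (lmFit with 4 group means over 14 arrays, eBayes, two-sided) tested 343 mouse probes with Benjamini-Hochberg adjustment. Changes added to simulated normalised values were recovered on average. They were larger than any change of a member here, and background and slide effects were not simulated.

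Members, classes, markers and alternatives were chosen with earlier results of these data known. Members named with per-array values passed the adjusted threshold, were above blank spots on at least 7 arrays, or had 1 of the 3 smallest p in a comparison among members above blank spots on at least 3 arrays; others are named by class where above on 0 arrays, or as stated. Alternatives covered background, normalisation, spot summary, filter, slide, model and each array left out. Of 19 same-numbered pairs across groups, 5 had a correlation above 0.1, so replicate numbers were not taken as pairs.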

Additional observations from a re-analysis of the deposited data

Results flagged for a closer look

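Among 16 groups of 4 arrays (8 named members in 2 groups), 2 held an array far from the others by Dixon's criterion, which chance alone meets in about 1 in 20 groups. For miR-290, nematode wild type replicate 4 was at 6.58 on the log2 scale, below the other 3 arrays at 7.30 to 7.41, with a gap of 0.87 of the group's range. This array also had the highest blank level, and its part in the value was not tested. For miR-141, nematode wild type replicate 3 was at 6.36, above the other 3 at 6.11 to 6.13, with a gap of 0.905 of the range.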

How the results depend on the processing

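The count of members called above blank spots, 25 (67.1% of all mouse probes were called), was 40 at the 90th percentile of blank spots (91% of mouse probes), 3 at the 99th (27.7%), 10 on foreground alone (45.2%), 40 at 1 array (93.3%) and 3 at 7 arrays (34.7%). Added after seeing the data, it was 3 against the plant-named 95th percentile (26.5%), 2 against the brightest negative control probe (15.5%) and 11 with 3 arrays left out together (49%). Leaving out 1 array gave 16 to 25. Counts called in the 5 comparisons were 0 in 14 of 14 planned settings for nematode against thioglycollate in wild type, genotype after thioglycollate and the interaction. Among these settings the deposited intensity table repeats plain background subtraction, so those 2 are not separate checks. The count was 1 (miR-291a-5p-291b-5p) for nematode against thioglycollate in IL-4R KO with cyclic loess and with only the groups compared, and for genotype after nematode with cyclic loess; the cause was not tested. Leaving out 1 array gave 0 to 1 in these 2 comparisons, the 1 without nematode wild type replicate 4 and replicate 2 in turn, and 0 in the others. With the replicate block, 0 members were called in each comparison (same-number correlations -0.238 to 0.315). Slide as a random block also called 0, but it cannot separate slide from group where no slide held both groups compared. Signal over blanks limits all fold changes here, since 3 of 47 members exceeded blank level on at least 7 arrays.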
